A study of Homo sapiens with 10 samples.

Results

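Open H3K4me1 peaks without H3K27Ac are peaks of monomethylated histone H3 lysine 4 that share at least 1 base with a FAIRE peak and no base with a peak of acetylated lysine 27 or of trimethylated lysine 4. They were chosen on these 4 measured lists, so their FAIRE, H3K27Ac and H3K4me3 values are descriptions of the choice. On chromosomes 1 to 22 the rule found 2955 peaks among 26355 H3K4me1 peaks, which is 11.2% (95% Wilson interval 10.8% to 11.6%), and the whole list holds 26771 peaks. The 2955 were 18.3% of the 16112 open H3K4me1 peaks without H3K4me3, and 44.8% of the 6591 peaks that have neither H3K4me3 nor H3K27Ac. No region was filtered out for low values, and all 2955 enter each count unless a subset or another setting is named. The cells were MDAMB231, an established human triple-negative breast cancer line from ATCC, grown in DMEM with 5% FBS with no treatment and fixed with 1% formaldehyde. ChIP-seq for each of the 3 marks and FAIRE-seq had 2 samples each, and there was 1 input sample for ChIP and 1 for FAIRE. Each assay is represented by 1 list of peaks made by the authors from both samples. The lists therefore hold no replicate error and no depth, and the 95% intervals cover counting over peaks in 1 cell line only. Peaks that neighbour each other on a chromosome are not independent of each other.

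H3K4me1 marks enhancers and the flanks of promoters, and H3K27Ac is laid down by the acetyltransferases p300 and CBP at enhancers and promoters in use. An enhancer that carries H3K4me1 without H3K27Ac is often called primed or, with other marks, poised, and FAIRE, which enriches DNA free of nucleosomes, shows where factors can reach it. In basal-like and mesenchymal breast cancer lines, AP-1 factors of the FOS and JUN families and the TEAD partners of YAP are known occupants of open enhancers. The label of the cells was checked by peaks within 1 kb of the start sites of marker genes. Of 8 genes that mark the mesenchymal state of this line, among them VIM, AXL, CD44, ZEB1, FOSL1, CAV1 and PLAUR, 8 had an H3K4me3 and an H3K27Ac peak, and 6 had a FAIRE peak. Of 8 luminal or epithelial genes (ESR1, PGR, GATA3, FOXA1, CDH1, EPCAM, CLDN4 and ESRP1), 2 had an H3K27Ac peak and 6 had an H3K4me3 peak. Over all coding genes 60.8% had H3K27Ac and 65.7% had H3K4me3. In the fuller lists used for nearest genes, H3K27Ac was at 11 of 19 luminal, 9 of 20 epithelial and 16 of 19 mesenchymal promoters, and H3K4me3 at 14, 15 and 17. TWIST1 and CDH2, of the mesenchymal list, had neither. GATA3, a luminal transcription factor, and CDH1, which encodes E-cadherin, had neither, while EPCAM and CLDN4, of cell adhesion and tight junctions, had both. The H3K4me3 counts of the short and the fuller lists, and both marks at EPCAM and CLDN4, went against the label. So did H3K27Ac at 11 of 19 luminal promoters, a share close to that over all coding genes.

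The sequences at the summits of this class are shown for 4 of its peaks, the 3 with the tallest FAIRE peak and the 1 with the highest H3K4me1 score. Each run is the 300 bases around the centre of the tallest FAIRE peak of the H3K4me1 peak, on the + strand of GRCh37. They lie at chr6:71022019-71022318, chr20:61746309-61746608, chr5:91144075-91144374 and chr1:205253811-205254110, in the order printed. Capitals mark any of 8 sets of letters searched on both strands, which are TGANTCA (AP-1), ACATTCC (TEAD), TGTTTAC (forkhead), CCGGAAG (ETS), TGTGGTT (RUNX), CACCTG (the E-box of ZEB and SNAI factors), CTTTGAT (TCF/LEF) and AGGGGGCGC (CTCF). TGANTCA reads the same on both strands. Each set was counted on its own, so a RUNX match on the other strand and an E-box match, for example, can share their end letters and both count.
MACS_peak_21710: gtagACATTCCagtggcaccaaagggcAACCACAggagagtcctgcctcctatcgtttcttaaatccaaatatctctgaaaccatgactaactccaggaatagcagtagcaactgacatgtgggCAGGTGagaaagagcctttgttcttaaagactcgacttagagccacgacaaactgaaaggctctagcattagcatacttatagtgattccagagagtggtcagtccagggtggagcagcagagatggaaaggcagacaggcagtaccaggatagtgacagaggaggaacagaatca
MACS_peak_13768: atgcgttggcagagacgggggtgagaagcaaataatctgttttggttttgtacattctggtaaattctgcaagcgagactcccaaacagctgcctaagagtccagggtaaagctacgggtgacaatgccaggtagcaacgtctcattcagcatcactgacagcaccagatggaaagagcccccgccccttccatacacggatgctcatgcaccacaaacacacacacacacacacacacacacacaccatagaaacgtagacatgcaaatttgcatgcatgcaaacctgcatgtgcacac
MACS_peak_19760: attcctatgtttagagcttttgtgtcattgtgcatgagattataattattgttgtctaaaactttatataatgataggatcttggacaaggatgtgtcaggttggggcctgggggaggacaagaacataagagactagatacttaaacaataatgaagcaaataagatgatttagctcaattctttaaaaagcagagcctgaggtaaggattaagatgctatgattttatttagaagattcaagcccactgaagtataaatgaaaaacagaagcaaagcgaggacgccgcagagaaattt
MACS_peak_2000: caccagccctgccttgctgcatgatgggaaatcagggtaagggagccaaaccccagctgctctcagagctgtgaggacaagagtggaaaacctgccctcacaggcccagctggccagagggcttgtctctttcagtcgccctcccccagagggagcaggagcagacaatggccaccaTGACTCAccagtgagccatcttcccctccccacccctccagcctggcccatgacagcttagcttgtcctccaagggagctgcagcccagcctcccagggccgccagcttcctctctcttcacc
In MACS_peak_21710 the TEAD letters are at bases 5 to 11, the RUNX letters at 28 to 34 and the E-box at 125 to 130, counted from the left end. MACS_peak_2000 holds TGACTCA, the AP-1 letters, at bases 178 to 184. MACS_peak_13768 and MACS_peak_19760 hold none of the 8 sets, which says only that these letters are not in these windows. GC content in the 4 windows runs from 35.3% to 62%. A match is a description of the letters and not evidence that a factor binds.

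The peaks were narrow. Their median width was 2385 bp (order-statistic interval 2354 to 2428), with quartiles of 1972 and 3059 bp and extremes of 1282 and 11046 bp. The 13157 open acetylated peaks, which are the H3K4me1 peaks with FAIRE and H3K27Ac and without H3K4me3, had a median of 3541 bp. The 3636 closed unacetylated peaks, with no FAIRE, H3K27Ac or H3K4me3 peak, had a median of 2153 bp. In width the open peaks without H3K27Ac therefore lay closer to the closed unacetylated peaks, and 435 of them (14.7%) were wider than the median open acetylated peak. A peak's score, which is 10 times the negative log10 of its MACS p-value against input, had a median of 85 among them, 168 among the open acetylated and 70.8 among the closed unacetylated peaks. A score of 100 or more was reached by 1108 of them (37.5%) and by 75.5% of the open acetylated peaks. Width is not in the rule, but a wider peak has more bases that can meet an H3K27Ac peak. The narrowness of the class is therefore not independent of the choice.

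**Figure D1:**
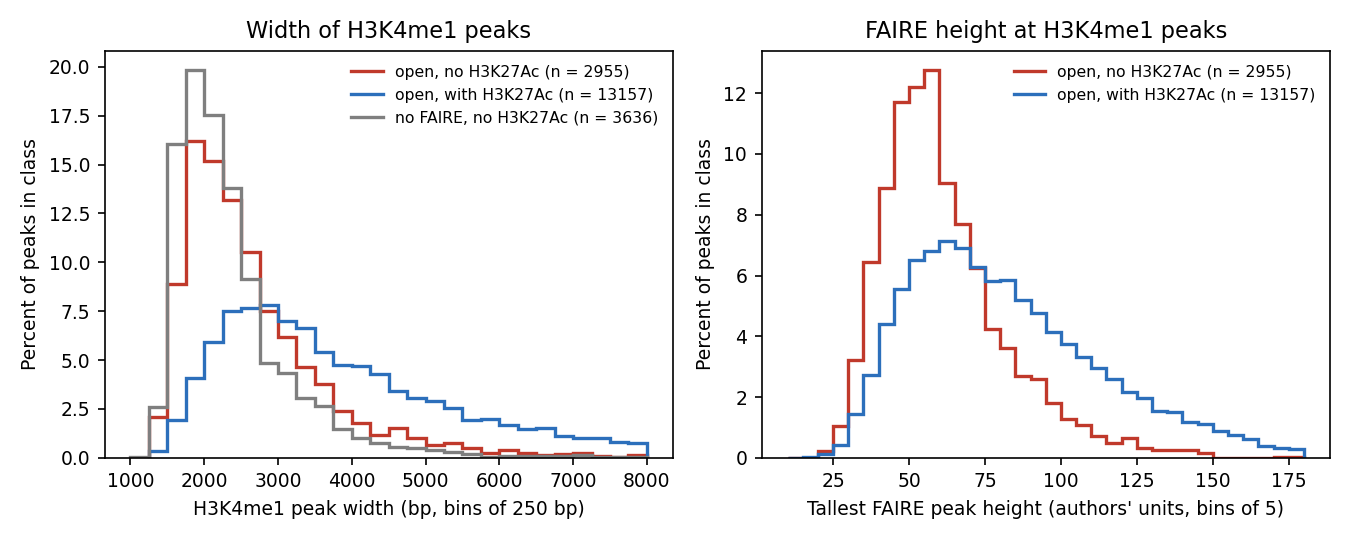
Left, the width of H3K4me1 peaks in bins of 250 bp, and right, the height of the tallest FAIRE peak in bins of 5 of the authors' units, as percent of the peaks in each class. The open peaks without H3K27Ac have a median width of 2385 bp and a median FAIRE height of 57.4, against 3541 bp and 76.3 for open acetylated peaks.

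FAIRE peaks at these regions were of middling height. The tallest FAIRE peak of each region had a median height of 57.4 in the units the authors give (56.7 to 58.3), with quartiles of 47.2 and 71.2 and a range from 21.3 to 175. All 46552 peaks of the FAIRE list had a median of 61.1, and 1216 of the 2955 regions (41.2%) reached it, against 70.4% of the open acetylated peaks, whose median height was 76.3. Heights still overlapped widely, since 564 of the regions (19.1%) were at or above the open acetylated median. FAIRE width differed less, at a median of 953 bp against 1013 bp. FAIRE covered a median of 39.4% of the H3K4me1 peak against 33.7%, but within 4 width classes the order was the opposite, with 47.0%, 34.8%, 27.5% and 19.7% from narrowest to widest against 47.2%, 36.9%, 30.5% and 26.3%. The FAIRE peak sat near the middle: its centre was within 500 bp of the centre of the H3K4me1 peak in 80.3% of the regions and in 62.2% of the open acetylated peaks. A fixed distance is met more easily in a narrow peak, and when the H3K4me1 peak was divided into 3 equal parts the centre was in the middle one in 75.3% against 71.1%. In 12 of the 2955 no FAIRE centre lay inside the H3K4me1 peak at all.

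Almost every region held a single FAIRE peak. The count was 1 in 2810 regions (95.1%, 94.3% to 95.8%), 2 in 142 and 3 in 3, and none held more. Among open acetylated peaks 73.4% held 1 and the largest number was 8. A wider peak has more room for FAIRE peaks, so both measures were read within 4 width classes, bounded at 2458, 3278 and 4688 bp. From the narrowest class to the widest, the median FAIRE height of the regions was 53.9, 60.3, 64.2 and 71.9, and that of open acetylated peaks 59.8, 69.3, 79.3 and 96.3. Height was thus lower without H3K27Ac in each width class. The classes were not matched on H3K4me1 score. Its medians were 73.1, 103, 125 and 132 in the regions, against 85.3, 140, 212 and 330 in open acetylated peaks. The study reports a similar mean FAIRE density at its poised and active enhancers. Those were cell type specific loci split by clustering of H3K27Ac tags, so they are not the classes used here. The percent with 1 FAIRE peak was 99.3, 96.1, 84.2 and 76.5 in the regions and 96.5, 92.2, 75.4 and 41.4 in open acetylated peaks. The widest class has no upper bound, and it reaches 11046 bp in the regions and 40238 bp in open acetylated peaks, so width still differs within it and its gaps are not at equal width.

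**Figure D2:**
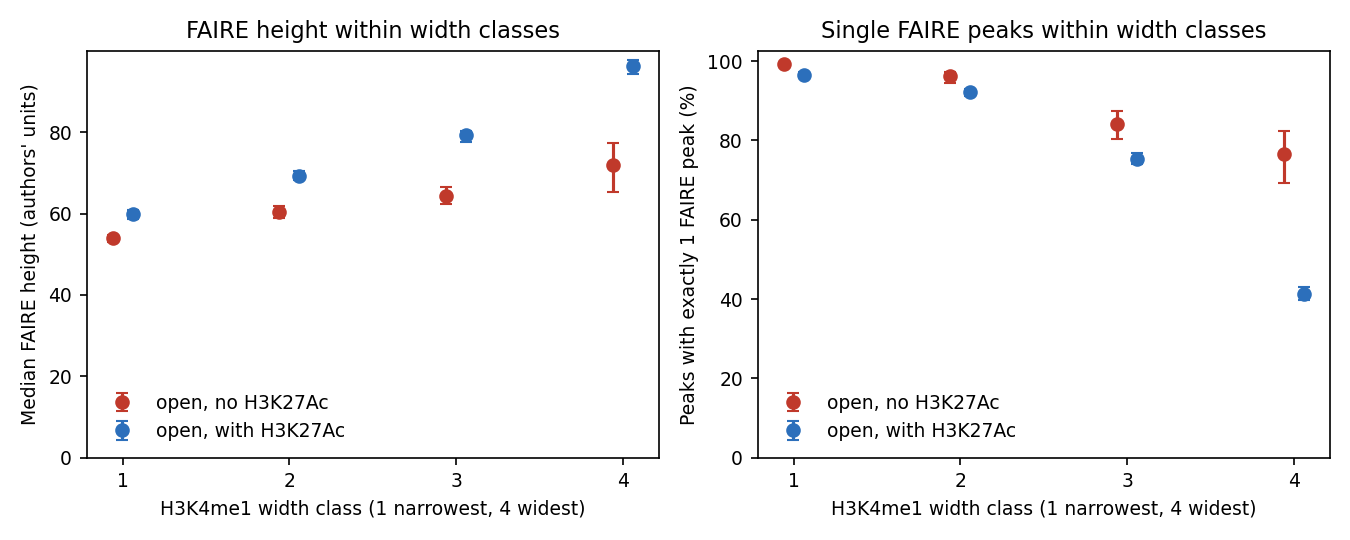
Left, median height of the tallest FAIRE peak (authors' units), and right, percent of peaks with exactly 1 FAIRE peak, in 4 classes of H3K4me1 width from narrowest (1) to widest (4), with 95% intervals as bars. In class 4 the height is 71.9 without and 96.3 with H3K27Ac, and 76.5% against 41.4% hold 1 FAIRE peak.

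The share of the class among open H3K4me1 peaks without H3K4me3 changed steeply with each of the 3 measures. All peaks counted in this paragraph lack H3K4me3. Of open peaks without H3K4me3, the class made up 39.1% in the narrowest width class and 3.8% in the widest. In the classes between it made up 20.0% and 10.5%. A wider peak has more bases to share with H3K27Ac, so the rule itself ties this share to width. By FAIRE height, in 4 classes of open peaks, the share of the class fell from 31.7% through 23.8% and 12.9% to 5.04%. By H3K4me1 score the class is pulled in opposite directions. Its share of all H3K4me1 peaks without H3K4me3, open or closed, was 20.3%, 18.6%, 11.4% and 2.93% in 4 score classes from the lowest. From the lowest to the highest of 4 score classes, the share of unacetylated peaks that were open rose from 35.6% through 48.5% and 59.2% to 72.1%, while the share of open peaks that lacked H3K27Ac fell from 40.4% through 28.5% and 14.2% to 3.11%. A strong H3K4me1 peak without H3K27Ac was therefore mostly open, yet a strong open peak rarely lacked H3K27Ac, and 163 regions remained in the highest score class. Across the 2955 regions, FAIRE height had a Spearman correlation of 0.302 with width and 0.217 with score, and width and score 0.516. These describe peaks of the same cells, and width and score also share libraries, input and depth. Height and the distance to H3K27Ac had a correlation of 0.0776.

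Distance to the nearest H3K27Ac peak, counted as the bases between the peaks, had a median of 17451 bp (16270 to 18547), with quartiles of 6342 and 42160 bp. Closed unacetylated peaks, which lack H3K27Ac by the same rule, had a shorter median of 12322 bp (11510 to 12928). Under 1 kb from H3K27Ac lay 77 regions (2.61%, against 5.17% of the closed unacetylated peaks), and from 1 to 5 kb 523 (17.7%, against 23%). From 5 to 10 kb lay 443 (15.0%, against 16.7%). From 10 to 50 kb lay 1287 (43.6%, against 38.6%), from 50 to 100 kb 404 (13.7%, against 10.1%), and beyond 100 kb 221 (7.48%, against 6.41%). Unacetylated peaks were thus less often open close to H3K27Ac: 29.1% of them were open under 1 kb, 38.4% from 1 to 5 kb, 42.2% from 5 to 10 kb, 47.8% from 10 to 50 kb, 52.5% from 50 to 100 kb and 48.7% beyond. FAIRE height rose a little with this distance. Its median was lowest from 1 to 5 kb, at 55.4 (53.7 to 57.1), and highest beyond 100 kb, at 60.1 (57.3 to 64.3). Under 1 kb it was 56.4. The nearest H3K27Ac peaks had a median score of 419, below the 591 of that whole list.

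**Figure D3:**
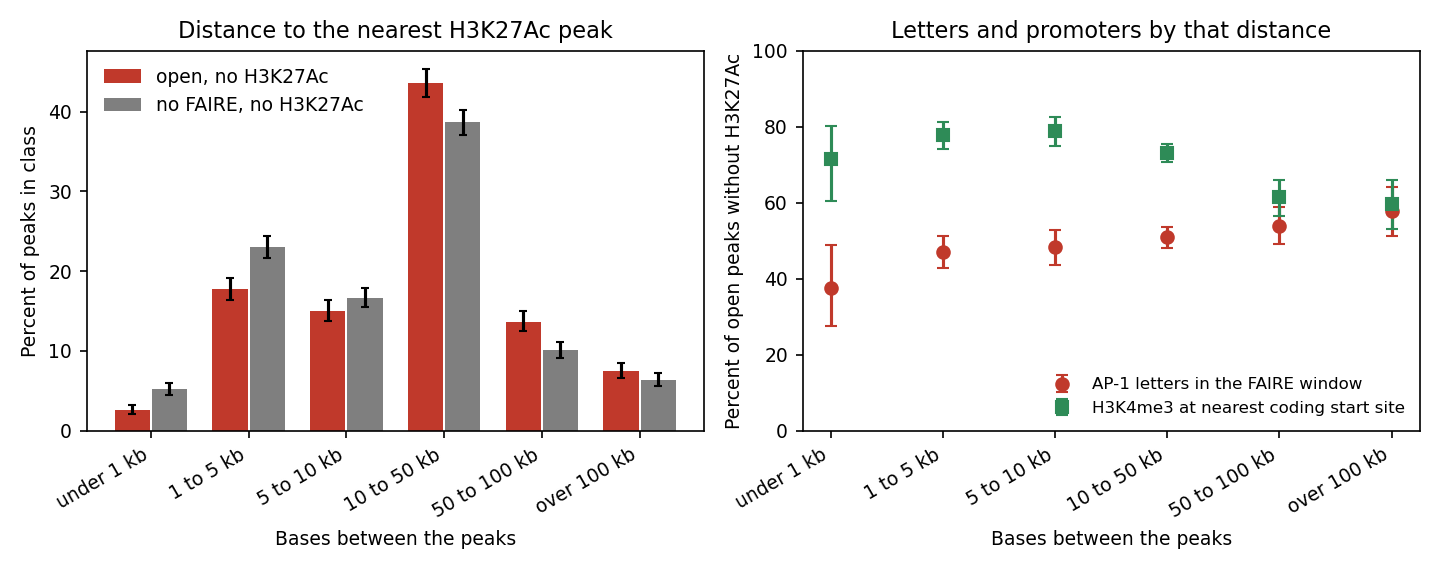
Left, percent of peaks by the bases to the nearest H3K27Ac peak, for the 2955 open and the 3636 closed unacetylated peaks. Right, percent of the open peaks without H3K27Ac that have AP-1 letters or an H3K4me3 peak at the nearest coding start site, in the same bins, with 95% intervals as bars. AP-1 letters go from 37.7% under 1 kb to 57.9% beyond 100 kb, and H3K4me3 from 71.4% to 59.7%.

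The rule turns on a single shared base, so the regions at its edge are given here as they are. Just inside it, MACS_peak_23730 lay 16 bp from an H3K27Ac peak, and MACS_peak_2526 and MACS_peak_4429 lay 35 bp from one, with FAIRE heights of 42.9, 57.9 and 39.8. Just outside it, MACS_peak_11687 shared 24 bases with H3K27Ac, MACS_peak_16385 shared 83 and MACS_peak_13867 shared 169, with FAIRE heights of 36.8, 35.7 and 36.4. In bases, few peaks sit at this edge: 23 regions lay under 500 bp from H3K27Ac, and 6 open acetylated peaks shared under 500 bases with it. By score the edge is broader: the H3K27Ac peaks of 1272 open acetylated peaks scored under 100, and counting only H3K27Ac and H3K4me3 peaks of 100 or more would raise the class to 4251 regions. On the FAIRE side, 3 regions shared under 100 bases with a FAIRE peak, the fewest being 1, and the closest closed unacetylated peak missed one by 24 bp. At the lower end of the H3K4me1 list, 281 regions had a score under 55.

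The neighbours of the regions are given beside the make-up of the list, in which 13157 of 26355 peaks are open and acetylated, 4125 have H3K4me3 and 11.2% are of the class itself. The nearest other H3K4me1 peak, at a median of 15704 bp, was open and acetylated for 1441 regions (48.8%), of the same class for 491 (16.6%), closed and unacetylated for 456, at H3K4me3 for 357 and closed and acetylated for 210. An open acetylated peak was also the nearest other peak for 54.9% of the open acetylated and 46.9% of the closed unacetylated peaks. A region of the class was nearest to 10.2% and 12.5% of these. Another region of the class lay within 10 kb of 252 regions, within 50 kb of 723 and within 100 kb of 1092 (37%). When consecutive H3K4me1 peaks of the class were joined with no other H3K4me1 peak between them, they formed 2499 stretches, of which 2123 held a single region. The stretches with most regions were picked after their values were seen. The first held 6 regions over 104872 bp by TNFSF8, the gene of CD30 ligand, on chromosome 9. The next held 5 regions over 179214 bp on chromosome 6, with HDGFL1 or PRL as the nearest gene. In the first, FAIRE heights ran from 34.2 to 108, so a long unacetylated stretch can hold both low and tall open sites.

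Set in a row by the strength of H3K27Ac, the class lies at the low end of H3K4me1 width and FAIRE height. The open acetylated peaks were split into 4 classes by the highest H3K27Ac score they share a base with. From no H3K27Ac through these 4 classes, the median H3K4me1 width was 2385, 2703, 3127, 3776 and 5225 bp, and the median FAIRE height 57.4, 64.5, 69.9, 79.9 and 97.1. The percent with 1 FAIRE peak fell in the same order, from 95.1 through 91.9, 82.7 and 75 to 44.1. These measures change in steps along H3K27Ac, and the open peaks without it continue the series. H3K27Ac also chose the regions, so the series describes the lists and tests nothing.

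Sequence was not used to choose the regions. AP-1 letters were in 1490 of the 2955 windows of 300 bases (50.4%, 48.6% to 52.2%), against 49.1% at open acetylated peaks and 39.2% of the windows of all 44702 FAIRE peaks on chromosomes 1 to 22. The difference from open acetylated peaks was 1.29 percentage points (Newcombe interval -0.709 to 3.28), and its sign depended on the setting: with 500 bases it was -1.55 and over the whole FAIRE peak -2.85, and the mean over 4 width classes was -0.702. The interval over the whole FAIRE peak, -4.66 to -1.08, lay below 0. With no H3K27Ac or H3K4me3 peak within 5 kb of the regions the difference was 2.66 points (0.454 to 4.86), and in 4 classes of FAIRE height it ran from 2.41 to 4.38. AP-1 letters thus gave no single direction between the open classes, and both classes held them more often than FAIRE peaks at large in the 300-base windows. By FAIRE height among the regions, AP-1 letters were in 46.3%, 51.3%, 49.1% and 55.1% of the windows from the lowest to the highest of 4 classes. They rose with distance from H3K27Ac, through 37.7%, 47.0%, 48.3%, 50.9%, 54.0% and 57.9% over the 6 distance bins. At the nearest bin the interval, 27.7% to 48.8%, is wide because it holds 77 regions.

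The AP-1 letters gathered at the centre of the FAIRE peak. In the central 50 bases there were 12.3 matches per 100 windows, against 11.7 at open acetylated peaks and 9.44 over all FAIRE peaks. In the outer 50 bases on each side of a 500-base window there were 3.81 per 50 bases, against 5.02 and 3.64. The regions without H3K27Ac thus had their AP-1 letters packed more closely around the centre. The middle base of the match was C or G, as in TGACTCA, in 77.4% of the matches (75.4% to 79.3%), against 72.4% at open acetylated peaks and 72.9% over all FAIRE peaks.

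**Figure D4:**
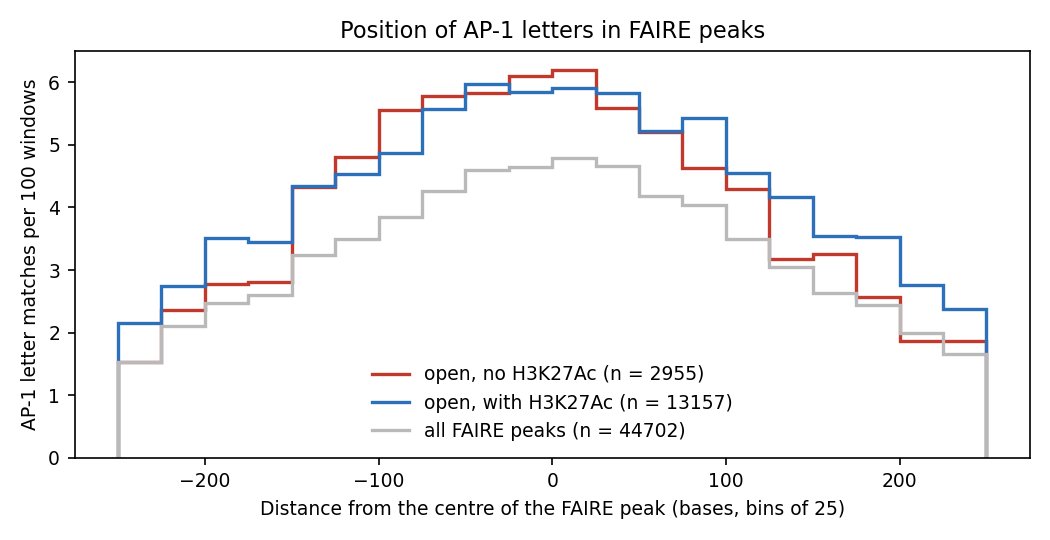
AP-1 letter matches per 100 windows (y axis) by distance in bases from the centre of the FAIRE peak (x axis, bins of 25), for the tallest FAIRE peak of 2955 open peaks without H3K27Ac, for that of 13157 open acetylated peaks, and for all 44702 FAIRE peaks. The first 2 lines are close near the centre, and the line without H3K27Ac is the lower of them beyond 150 bases.

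Other letters differed between the open classes. TEAD letters were in 6.43% of the regions, against 8.92% of open acetylated peaks and 6.96% of all FAIRE windows, a difference of -2.49 points (-3.46 to -1.44). Forkhead letters were in 9.0%, against 6.73% and 6.07%, a difference of 2.28 points (1.20 to 3.44). RUNX letters were in 15.6%, against 12.9% and 10.6%, a difference of 2.68 points (1.29 to 4.14). ETS letters, frequent at promoters, were in 15 regions (0.508%), against 1.5% and 3.49%, a difference of -0.997 points (-1.30 to -0.616). The sign of each of these 4 differences was the same in each of 4 classes of FAIRE height, of GC content and of H3K4me1 width. Averaged over the 4 classes of FAIRE height they were -2.26 for TEAD, 2.23 for forkhead, 4.28 for RUNX and -1.04 for ETS.

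TEAD letters also climbed with H3K27Ac, from 6.43% without it through 7.17%, 8.36% and 9.27% to 10.9% in the class of highest H3K27Ac score. Forkhead letters were at 7.17%, 7.08%, 6.08% and 6.57% in those 4 classes, so the highest share was that of the regions without H3K27Ac. E-box letters were in 15.6% of the regions, against 15.2% of open acetylated peaks and 16.8% of all FAIRE windows, and TCF/LEF letters in 6.06%, against 5.31% and 4.84%. For both sets the interval of the difference from open acetylated peaks included 0. CTCF letters were in 0 of 2955 windows, which allows a share of up to 0.102% by a limit of 3 counts and 0.130% by the Wilson bound, against 7 of the 13157 open acetylated windows and 0.438% of all FAIRE windows. Windows with none of the 8 sets were 27.5% of the regions, 29.2% of open acetylated peaks and 35.5% of all FAIRE windows. Median GC content was 41.7% in the regions and 42.3% in open acetylated peaks. AP-1 and RUNX letters occurred together in 204 regions (6.90%, against 5.80%), and AP-1 and TEAD letters in 82 (2.77%, against 3.87%).

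**Figure D5:**
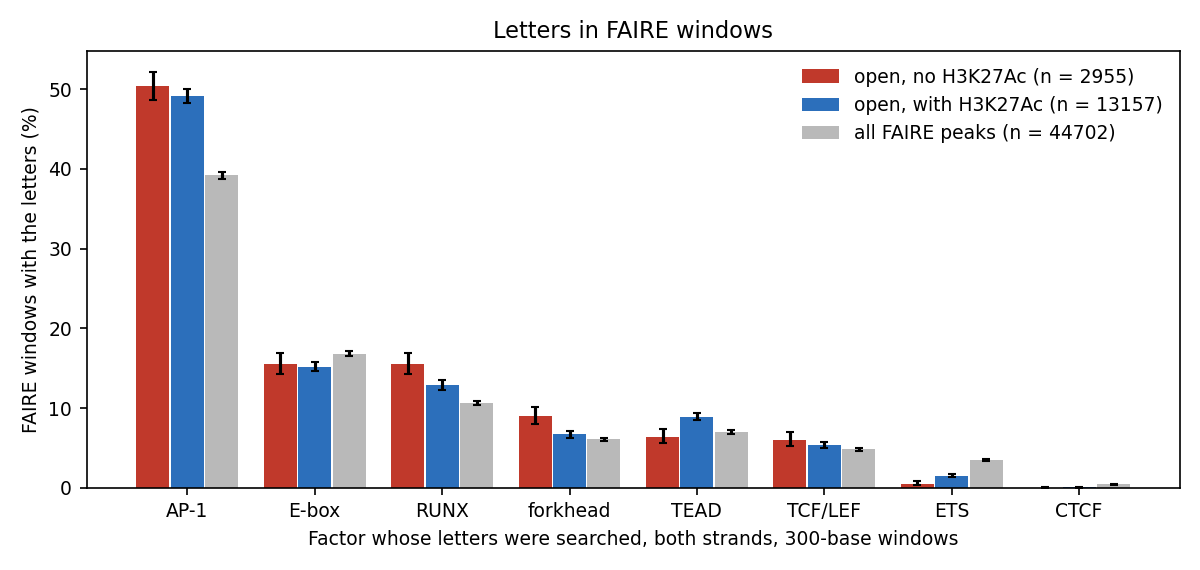
Percent of 300-base FAIRE windows with each of 8 sets of letters, for open peaks without H3K27Ac (n = 2955), open acetylated peaks (n = 13157) and all FAIRE peaks (n = 44702), with 95% Wilson intervals as bars. RUNX and forkhead letters are more frequent, and TEAD and ETS letters less frequent, without H3K27Ac.

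Single chromosomes repeated the differences in width, FAIRE height, TEAD and ETS letters more often than those in the other letters. The median width and the median FAIRE height were lower than in open acetylated peaks on 22 of 22 chromosomes. Width itself bears on the chance of meeting H3K27Ac, on every chromosome. TEAD letters were less frequent on 19 and ETS letters on 19. Forkhead letters were more frequent on 15 and less frequent on 7, and RUNX letters on 14 and 8. AP-1 letters, which gave no single direction above, were more frequent on 15 and less frequent on 7. Per chromosome, the class made up from 7.14% of the open peaks without H3K4me3 on chromosome 19, where it had 8 regions, to 22.5% on chromosome 20, where it had 69.

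By place in the annotation (GENCODE v44lift37), the centre of the region was in an intron for 1807 regions (61.2%), between genes for 952 (32.2%), in an exon for 111 (3.76%) and within 1 kb of the start site of a gene of any type for 85 (2.88%). Open acetylated peaks had 62.8% in introns and 29.9% between genes. The share between genes was 40.7% for regions over 100 kb from H3K27Ac. The nearest protein-coding start site was at a median of 71493 bp (67061 to 76296), against 65848 bp for open acetylated peaks, and 40.1% of the regions had none within 100 kb, against 37.1%. For 968 regions (32.8%) the nearest coding start site was that of the gene they lie in. Which gene a region acts on was not measured, so nearest genes are a description of place. A region said to be near a gene has its nearest coding start site there, at whatever distance.

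The promoters nearest to these regions were less often marked as active. An H3K27Ac peak lay within 1 kb of the nearest coding start site for 65.9% of the regions, 72.7% of open acetylated peaks, 72.0% of closed unacetylated peaks and 60.8% of all 18978 coding genes. The difference from open acetylated peaks was -6.81 points (-8.70 to -4.96), and where the start site was over 10 kb away it was -5.39 points (-7.34 to -3.47). For H3K4me3 the shares were 72.2%, 74.9%, 76.4% and 65.7%, a difference of -2.67 points (-4.47 to -0.921) from open acetylated peaks. With start sites of all gene types it was -1.74 (-3.50 to 0.0682), an interval that includes 0, and as the mean over 4 width classes -1.54. The nearest promoter had neither mark for 780 regions (26.4%, against 22.1% for open acetylated peaks), and H3K4me3 without H3K27Ac for 227 (7.68%, against 5.16%). The difference for H3K27Ac was below 0 on 20 of 22 chromosomes and that for H3K4me3 on 17. Both shares were therefore lower at these regions than at the closed peaks that also lack H3K27Ac. They were above the share over all coding genes, but the units differ. That share counts each gene once, while a gene nearest to several regions counts once for each region.

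These promoter shares were lowest far from H3K27Ac. H3K27Ac was at the nearest promoter of 67.5% of the 77 regions under 1 kb from an H3K27Ac peak, 73.6% from 1 to 5 kb, 76.1% from 5 to 10 kb, 67.7% from 10 to 50 kb, 53.5% from 50 to 100 kb and 39.4% beyond. H3K4me3 took the same course, at 71.4%, 77.8%, 79.0%, 73.1%, 61.4% and 59.7%. Both shares thus rose up to 10 kb and fell beyond it. The distance counts promoter H3K27Ac peaks too, so the measures share part of their data. RUNX letters were in 15.6%, 14.3%, 13.8%, 15.9%, 14.6% and 21.7% of the regions over the same 6 bins. Forkhead letters were in 7.79%, 8.99%, 11.3%, 9.01%, 8.42% and 5.88%. Beyond 100 kb the forkhead share was thus below the 6.73% of open acetylated peaks, which its interval (3.47% to 9.80%) includes.

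Nearest start sites belonged to 2119 coding genes, which is 11.2% of the 18978 on these chromosomes, and 3048 genes (16.1%) had a region within 100 kb. Of the 2119 genes, 1571 had 1 region, 377 had 2, 171 had 3 or more and 29 had 5 or more. The 625 genes that had such regions but no open acetylated peak nearest to them accounted for 711 regions. The remaining 2244 regions shared their nearest gene with at least 1 open acetylated peak.

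The 10 genes with most regions, by a fixed rule, held 68 of them. PRL, the gene of the hormone prolactin, had 8 regions and 3 open acetylated peaks, with FAIRE heights from 49.2 to 139 and no H3K4me3 or H3K27Ac at its promoter. HS3ST1, a sulfotransferase that modifies heparan sulfate, also had 8, next to 19 open acetylated peaks. DUSP10, a phosphatase that turns off p38 and JNK kinases, ID4, an inhibitor of helix-loop-helix factors, RASEF, a RAB-type GTPase, and TLE3, a Groucho co-repressor, had 7 each. TNFSF8, TENM3 (a teneurin of cell adhesion), HAS2 (which makes hyaluronan) and MAGI1 (a scaffold of cell junctions) had 6 each. The promoters of PRL and TNFSF8 had neither mark and that of RASEF had H3K4me3 without H3K27Ac, while the other 7 had both. At PRL, TLE3 and TNFSF8 the regions outnumbered the open acetylated peaks (8 against 3, 7 against 3 and 6 against 2).

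Gene lists fixed by function were counted beside the 11.2% of all coding genes with a region nearest and the 16.1% with one within 100 kb. Of 46 developmental transcription factors 14 had a region nearest and 15 had one within 100 kb. Among the 14 with a region nearest were SOX4 with 5 regions, FOXP1 and EBF1 with 4, and SOX5, SOX9 and RUNX1 with 3. Of the others, SOX2 had 2, and SOX6, PAX6, TBX2, TBX15, RUNX3 and TFAP2A had 1. Promoters of 21 of the 46 had H3K4me3. SOX5, a factor of cartilage and neural development, and PAX6, a factor of eye development, had no open acetylated peak nearest.

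Among 25 genes of the TGF-beta and BMP pathways, 8 had a region nearest and 6 had one within 100 kb. Those with a region nearest were the ligands TGFB2, BMP2 and BMP4 and the receptors TGFBR2 (with 5 regions), TGFBR3 and BMPR1B (with 2 each). The signal transducer SMAD3 and the co-repressor SKIL were the others. Of 20 factors and targets of YAP and TEAD, 7 had a region nearest and 9 had one within 100 kb. The 7 with a region nearest were the co-activator YAP1 (with 2), the DNA-binding partner TEAD1 and the targets ANKRD1, AMOTL1, NUAK2, TGFB2 and CRIM1. TGFB2 counts in both lists. In the AP-1 family, 3 of 16 genes had a region nearest and 4 had one within 100 kb. The 3 with a region nearest were FOSL2 with 2, BATF3 with 1 and MAF with 3. The promoters of all 16 had H3K4me3 and H3K27Ac.

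Luminal genes had regions too, although the line is triple-negative. Of 19 luminal genes on these chromosomes 5 had a region nearest and 5 had one within 100 kb. GATA3 had 5 regions, at 489337 bp or more from its start site, next to 16 open acetylated peaks, TBX3, a T-box factor, had 3, and KRT8, a keratin of simple epithelia, had 1. ESR1, the oestrogen receptor, had 2 regions and PRLR, the prolactin receptor, had 2 regions and no open acetylated peak, and both promoters had H3K4me3 without H3K27Ac. Of 19 mesenchymal genes 5 had a region within 100 kb. A region was nearest to 4 of the 19, namely TWIST1 with 2 and ZEB1, FN1 (fibronectin) and CDH2 (N-cadherin) with 1. TWIST1 and ZEB1 are repressors of epithelial genes. Of 20 epithelial genes 2 had a region nearest, KLF5 with 2 and TP63 with 1, both transcription factors of epithelia, and 1 gene had one within 100 kb. Kinetochore and spindle genes had 4 of 25 (BUB1B, BUB3, MAD2L1 and ZWINT, with 5 within 100 kb), and ribosomal protein genes 2 of 25 (RPL34 and RPS23, with 2 within 100 kb). The lists are short. For the epithelial, mesenchymal, AP-1, kinetochore and ribosomal lists the Wilson interval of the share includes 11.2%, and for the developmental, TGF-beta and BMP, YAP/TEAD and luminal lists its lower bounds were 19.1%, 17.2%, 18.1% and 11.8%, on which no test was run. Within 100 kb, the intervals of the TGF-beta and BMP list (11.5% to 43.4%) and of the luminal list (11.8% to 48.8%) include 16.1%. Open acetylated peaks lay nearest to these genes too. In the developmental, TGF-beta and BMP, YAP/TEAD and luminal lists they numbered 127, 96, 61 and 35, beside 35, 14, 8 and 13 regions. Over all coding genes they numbered 13157 beside 2955 regions.

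The tallest FAIRE peak of the class was at MACS_peak_21710 on chromosome 6, with a height of 175 and an H3K4me1 score of 142. It lies between genes, 9527 bp from the start site of COL9A1, a cartilage collagen gene with no H3K4me3 or H3K27Ac at its promoter, and 84407 bp from the nearest H3K27Ac peak. Next came MACS_peak_13768 near YTHDF1, a reader of methylated mRNA (height 171), MACS_peak_19760 near ARRDC3, an arrestin-like adaptor (148), MACS_peak_20506 near SPINK5, a protease inhibitor of skin (146), and MACS_peak_25868 in an intron of GALNT12, which starts O-linked glycosylation (146). Each of these 5 held 1 FAIRE peak and lay at least 17322 bp from H3K27Ac, with MACS_peak_19760 at 376509 bp. The nearest promoter had H3K27Ac at 2 of the 5, those of YTHDF1 and ARRDC3. These start sites lay 101144 and 465863 bp from their regions, and that of SPINK5 51797 bp. Counting genes of any type, a start site lay 1231 bp from MACS_peak_13768, 4651 bp from MACS_peak_19760 and 24154 bp from MACS_peak_25868. For MACS_peak_21710 and MACS_peak_20506 the coding start site was the nearest of any type.

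The highest H3K4me1 score was at MACS_peak_2000 on chromosome 1, with 887, a width of 6125 bp and a FAIRE height of 95.9. Its nearest gene, at 35348 bp, is NUAK2, a kinase gene of the AMPK family that YAP induces, with both marks at its promoter, and an H3K27Ac peak lay 3570 bp away. Among the other high scores were those of MACS_peak_3177 on chromosome 10 (575), MACS_peak_13411 near JAG1, a Notch ligand (498), and MACS_peak_26152 in an intron of PAPPA, a protease that frees insulin-like growth factors (443).

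The widest region was MACS_peak_2369 of 11046 bp in SNAP47, a SNARE protein gene, which held 3 FAIRE peaks. The next were MACS_peak_13687 by SPATA2 (9576 bp), MACS_peak_10618 in DNAH17 (9229 bp), MACS_peak_2338 by LBR (8587 bp) and MACS_peak_26272 by ANGPTL2 (7995 bp), with 1 or 2 FAIRE peaks each. The other regions with 3 FAIRE peaks were MACS_peak_16431, 163284 bp from HES1, a Notch-regulated repressor, and MACS_peak_18270, 295633 bp from SFRP2, a secreted Wnt modulator. Among those with 2, the summed FAIRE height was largest at MACS_peak_21004 near NEDD9, a focal-adhesion scaffold, and at MACS_peak_26111 near TNFSF8, at 260.1 and 212.

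The region farthest from H3K27Ac was MACS_peak_13771 on chromosome 21 near TPTE, at 5050233 bp, but 62.4% of the bases between are unsequenced in GRCh37. The next were MACS_peak_15575 near LSAMP, a neuronal adhesion gene, at 1190171 bp, MACS_peak_20067 near SEMA6A, a semaphorin (476761 bp), MACS_peak_24719 near RUNX1T1, a co-repressor (471816 bp), and MACS_peak_18588 near AGA, a lysosomal enzyme (422220 bp), with no such gaps. Their FAIRE heights, with that of the first, ran from 52.6 to 87.1, beside class quartiles of 47.2 and 71.2. The start sites of TPTE, LSAMP, SEMA6A, RUNX1T1 and AGA lay 289814, 806816, 395850, 395410 and 722810 bp from these regions.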

How the data were processed

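The authors, per the study's methods, aligned reads to GRCh37 (hg19) with BWA, filtered them for duplicates and mapping quality, combined both samples of each assay, and called histone peaks with MACS and FAIRE peaks with FindPeaks against input, while the submitters' processing notes name TopHat and HOMER. The score deposited for each ChIP peak is 10 times the negative log10 of its p-value. The deposited signal of a FAIRE peak is its height as the authors computed it, with no scaling stated. Starts were read as counted from 0. No list of regions prone to mapping artefacts was applied here, also not to the loci named. Depth is not in the lists, so precision is given by counting over peaks alone.

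An overlap was at least 1 shared base, computed with python 3.11.15, numpy 2.4.6 and pandas 2.3.3, and tested on simulated data against bedtools 2.31.1. Figures were drawn with matplotlib 3.10.9. Start sites are those of the canonical transcripts of GENCODE v44lift37, measured from the peak centre. Shares have 95% Wilson intervals, medians order-statistic intervals and differences Newcombe intervals, with no test. The members and lists were chosen with earlier results of these data known.

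Loci named are the 5 members with the tallest FAIRE peak, highest score, largest width, most FAIRE peaks and largest distance to H3K27Ac, and 3 on each side of the rule's edge. Genes named are the 10 nearest to most members, and those with a member nearest in lists of mesenchymal, luminal, epithelial, AP-1, YAP/TEAD, developmental, TGF-beta and BMP, kinetochore and ribosomal genes. Not every locus or gene that these rules pick is named. Alternatives were stricter scores and heights, FAIRE centres inside the peak, an exclusion of 5 kb, X added, width, GC and height classes, other promoters and wider windows. Peaks outside chromosomes 1 to 22 were left out by the rule.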

Additional observations from a re-analysis of the deposited data

Results flagged for a closer look

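On chromosome X, which the rule leaves out, 44 H3K4me1 peaks met the other terms of the rule. They stand here because the report's comparisons, other than the alternative that adds X, do not use them and their number is above the limit that a count of 0 allows. They are 12.4% (95% Wilson interval 9.34% to 16.2%) of the 356 X peaks without H3K4me3, against 2955 of 22230 on chromosomes 1 to 22, and 13.9% (10.5% to 18.2%) of the 316 open ones, against 18.3% of the open peaks on chromosomes 1 to 22. Neither difference was tested.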

How the results depend on the processing

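The number of members, their width, FAIRE height, share with 1 FAIRE peak and distance to H3K27Ac, and the differences in promoter H3K4me3 and AP-1 letters were recomputed under other settings, and the other results were not, apart from the classes the report gives. The difference in H3K4me3 at the nearest coding promoter stayed below 0 in 10 of 10, from -3.59 to -1.54 points, though for start sites of all gene types its interval (-3.50 to 0.0682) included 0. Requiring the FAIRE centre inside the H3K4me1 peak, or adding X, moved none of the results beyond its interval.

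With an H3K4me1 score of 100 or more there were 1108 members with a median width of 2854 bp, a FAIRE height of 61.7 and 91.7% with 1 FAIRE peak. With FAIRE at or above the list's median height there were 1216, with a width of 2648 bp, a height of 75, 97.9% with 1 FAIRE peak and 19587 bp to H3K27Ac. The lower counts, and the raised height under the FAIRE setting, follow from the construction of these settings. With no H3K27Ac or H3K4me3 peak within 5 kb the distance to H3K27Ac was 24755 bp, as construction requires. With H3K27Ac and H3K4me3 peaks of score 100 or more there were 4251 members, the width was 2459 bp, the height 58.6 and the distance 20169 bp. Fewer excluding peaks can only add members, and can only lengthen the distance of a region already in the class. In the 4 width classes the height was 53.9, 60.3, 64.2 and 71.9, and the percent with 1 FAIRE peak 99.3, 96.1, 84.2 and 76.5. For the other moves the cause was not tested.

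The difference in AP-1 letters, 1.29 points, reversed to -1.55 with windows of 500 bases, to -2.85 over whole FAIRE peaks and to -0.702 as the mean over 4 width classes. As the mean over 4 classes of FAIRE height, an alternative chosen after seeing the data, it was 3.41. The cause was not tested. In all, 34 values kept within their tolerance, 22 moved and 3 reversed. The tolerance was the 95% interval of the reported value, and for the number of members 1.5 times in either direction, so that 2329 members with the exclusion of 5 kb and 4251 with stricter histone peaks are within it. The AP-1 difference of 2.66 points under that exclusion is within it too, although its own interval (0.454 to 4.86) no longer included 0.

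No paired analysis was possible because the lists available for each assay pool its 2 samples, and for the same reason no leave-one-out was possible. Depth limits which peaks were called: a region counts as unacetylated when no H3K27Ac peak passed the authors' threshold, and signal below it cannot be seen in these lists. FAIRE heights are in the authors' units and cannot be compared with other studies. H3K27me3, which separates poised from primed enhancers, and gene expression were not measured in these samples.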
